A study of Mus musculus with 8 samples.

Results

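5-Hydroxymethylcytosine (5hmC) was mapped around 8 proneural basic helix-loop-helix (bHLH) genes of the mouse, Neurog1, Neurog2, Neurog3, Neurod1, Neurod2, Neurod6, Atoh1 and Olig2. The genes were taken by symbol from the mm9 annotation, where they are 8 of 22367 protein-coding genes on the nuclear chromosomes. Every 5hmC peak that touched a gene or the 10 kb on each side of it was collected, and the 8 windows span 182956 bp together. Positions are in bp from the transcription start site (TSS) along the strand of the gene, so negative values are upstream.

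The 6 libraries were 1 of untransfected E14 embryonic stem cells (ESCs), 1 of mouse embryonic fibroblasts (MEFs) of C57BL/6 embryos, 1 each of whole adult brain and liver of C57BL/6 mice aged 8 weeks, and 1 each of the E14 line after transfection of a hairpin directed at GFP as control (shGFP) or at Suz12 (shSuz12). The MEFs are labelled as embryonic day 11, while the study's methods give a later day. E14 is a single ESC line, the transfected cells went through drug selection, and the hairpin against Suz12 that was used for the sequenced library is not named in the sources used here. 5hmC was captured by GLIB, in which the modified base is glucosylated and tagged with biotin before pull-down and sequencing. With 1 library per condition there is no spread between replicates, no test was possible, and all comparisons below set values side by side.

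Proneural bHLH proteins pair with widely expressed E proteins, bind E-box sequences and commit progenitors to a neuronal fate. Id proteins sequester the E proteins, and several Hes and Hey proteins repress the proneural genes downstream of Notch. In ESCs these genes are silent and are well known targets of Polycomb repressive complex 2 (PRC2), of which Suz12 is a core subunit and which methylates histone H3 on lysine 27. 5hmC is made from 5-methylcytosine by the Tet enzymes, and Tet1 is abundant in ESCs.

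The lists held between 130408 (liver) and 217025 (MEFs) peaks on nuclear chromosomes and covered between 3.15% (shSuz12) and 7.83% (MEFs) of the genome. Each peak has a MACS score, the negative log10 of the peak's p-value multiplied by 10. ESCs and liver had no score under 80, shGFP none under 50.02, shSuz12 none under 30.34, and MEFs and brain none under 30, so weak peaks are listed in some libraries and not in others. Only 17.0% of the shSuz12 peaks and 21.1% of the brain peaks scored at least 80, against 56.0% in shGFP and 34.1% in MEFs. The shSuz12 list also stood apart by its narrow peaks, with a median width of 564 bp against 776 to 1063 bp in the other lists. The files give no read counts, so the depth is unknown, and a missing peak means only that none was called. Peak lists hold no expression values, so neither the tissue labels nor the level of Suz12 could be checked from them. The series also holds RNA-Seq libraries for shGFP and shSuz12, which were not analysed here. In the paper, Western blots of ESCs with each Suz12 hairpin showed less Suz12 protein than the control.

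A part of the sequences that carried 5hmC peaks in all 3 ESC libraries is shown, with at least 1 for each gene that had them. These stretches do not rest on any 1 list. Each is the central 250 bp, or less, of the overlap of the ESC, shGFP and shSuz12 peaks, read 5′ to 3′ on the strand of the gene from the NCBIM37 (mm9) reference, with CpG dinucleotides in capitals. The Neurog2 stretch was shared by shGFP and shSuz12 only and is given because it lies in the strongest shGFP peak of the 8 windows.
Neurog3 -4102 to -3853, chr10:61591736-61591985, plus strand: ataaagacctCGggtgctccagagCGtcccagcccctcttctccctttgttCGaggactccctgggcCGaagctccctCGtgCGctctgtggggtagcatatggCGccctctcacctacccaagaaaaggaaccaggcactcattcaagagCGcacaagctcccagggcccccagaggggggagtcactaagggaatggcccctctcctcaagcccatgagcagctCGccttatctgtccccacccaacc
Neurod1 -2613 to -2364, chr2:79299272-79299521, minus strand: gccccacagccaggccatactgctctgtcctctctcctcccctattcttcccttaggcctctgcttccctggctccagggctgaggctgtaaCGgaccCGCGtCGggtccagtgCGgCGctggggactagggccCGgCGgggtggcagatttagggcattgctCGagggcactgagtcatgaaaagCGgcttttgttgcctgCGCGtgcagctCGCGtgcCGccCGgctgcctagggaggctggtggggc
Neurod1 856 to 1105, chr2:79295803-79296052, minus strand: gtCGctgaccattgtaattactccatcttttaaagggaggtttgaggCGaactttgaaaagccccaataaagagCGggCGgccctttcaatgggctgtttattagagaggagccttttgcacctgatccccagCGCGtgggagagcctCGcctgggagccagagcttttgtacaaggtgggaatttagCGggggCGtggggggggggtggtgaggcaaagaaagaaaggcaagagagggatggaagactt
Neurod2 -3927 to -3678, chr11:98194640-98194889, minus strand: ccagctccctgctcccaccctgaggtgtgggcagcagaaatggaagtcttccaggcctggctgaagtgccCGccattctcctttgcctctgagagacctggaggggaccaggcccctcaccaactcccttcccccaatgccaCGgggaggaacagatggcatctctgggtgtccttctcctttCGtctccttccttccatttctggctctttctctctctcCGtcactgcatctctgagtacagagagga
Neurod6 4101 to 4350, chr6:55626907-55627156, minus strand: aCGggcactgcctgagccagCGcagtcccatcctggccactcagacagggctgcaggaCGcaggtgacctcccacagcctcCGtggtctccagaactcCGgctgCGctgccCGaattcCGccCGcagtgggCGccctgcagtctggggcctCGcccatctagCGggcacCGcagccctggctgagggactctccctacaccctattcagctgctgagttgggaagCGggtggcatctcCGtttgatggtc
Olig2 6916 to 7165, chr16:91232711-91232960, plus strand: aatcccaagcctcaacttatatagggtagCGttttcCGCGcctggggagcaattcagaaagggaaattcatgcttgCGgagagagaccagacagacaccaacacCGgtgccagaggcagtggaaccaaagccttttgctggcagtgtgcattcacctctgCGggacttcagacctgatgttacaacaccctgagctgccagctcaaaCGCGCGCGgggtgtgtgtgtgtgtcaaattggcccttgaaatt
Neurog2 6769 to 7018, chr3:127342823-127343072, plus strand: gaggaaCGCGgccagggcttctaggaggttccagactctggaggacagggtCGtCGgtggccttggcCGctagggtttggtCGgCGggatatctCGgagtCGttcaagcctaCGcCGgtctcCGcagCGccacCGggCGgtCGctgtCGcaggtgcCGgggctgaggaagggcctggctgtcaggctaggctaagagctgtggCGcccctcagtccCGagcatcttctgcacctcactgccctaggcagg

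These stretches differed in CpG content. The Neurog2 stretch held 20 CpGs, the upstream Neurod1 stretch 16 and the Neurod6 stretch 15, whereas the Neurod2 stretch held 4. Shared stretches of 250 bp that are not printed held from 4 (such as Neurog3, -3081 to -2832) to 14 (Neurog3, -5286 to -5037). Of the printed ones, the Neurod1 stretch at 856 to 1105 was intronic, and the other 6 lay outside the gene they are named by. Among these 6, the Neurog3 stretch lay within the gene 2010107G23Rik and the upstream Neurod1 stretch within Gm17325. Against these stand the 200 bp just before the TSS of the 4 genes whose TSS ± 1 kb was free of peaks in every library, followed by the same 200 bp of Neurog3, which lay under a peak in shGFP.
Neurog1 -200 to -1, chr13:56353525-56353724, minus strand: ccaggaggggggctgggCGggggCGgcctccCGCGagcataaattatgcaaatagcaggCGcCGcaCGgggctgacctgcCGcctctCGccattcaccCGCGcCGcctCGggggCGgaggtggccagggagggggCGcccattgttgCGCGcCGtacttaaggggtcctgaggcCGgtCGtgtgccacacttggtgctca
Neurog2 -200 to -1, chr3:127335854-127336053, plus strand: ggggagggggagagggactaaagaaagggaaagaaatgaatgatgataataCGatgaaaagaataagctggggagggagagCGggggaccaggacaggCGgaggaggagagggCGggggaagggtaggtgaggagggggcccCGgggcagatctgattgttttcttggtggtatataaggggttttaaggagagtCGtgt
Neurod2 -200 to -1, chr11:98190963-98191162, minus strand: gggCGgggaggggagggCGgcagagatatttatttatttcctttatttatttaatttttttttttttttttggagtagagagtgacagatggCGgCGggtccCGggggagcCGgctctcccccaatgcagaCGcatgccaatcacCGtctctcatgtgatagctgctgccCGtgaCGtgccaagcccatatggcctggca
Atoh1 -200 to -1, chr6:64678940-64679139, plus strand: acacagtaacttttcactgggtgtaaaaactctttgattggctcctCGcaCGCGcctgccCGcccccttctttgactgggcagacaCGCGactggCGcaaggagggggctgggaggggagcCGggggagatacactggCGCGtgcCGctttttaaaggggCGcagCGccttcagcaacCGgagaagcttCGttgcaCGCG
Neurog3 -200 to -1, chr10:61595638-61595837, plus strand: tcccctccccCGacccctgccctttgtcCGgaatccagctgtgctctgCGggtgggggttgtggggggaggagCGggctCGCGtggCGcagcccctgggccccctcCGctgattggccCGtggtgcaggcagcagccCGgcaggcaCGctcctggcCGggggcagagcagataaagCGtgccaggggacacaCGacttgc

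Among these the counts were 20 CpGs in Neurog1, 6 in Neurog2, 10 in Neurod2, 17 in Atoh1 and 14 in Neurog3. The stretches without peaks at Neurog1 and Atoh1 were thus richer in CpG than the covered one of Neurog3, and those at Neurog2 and Neurod2 were poorer. The share of all genes whose TSS ± 1 kb was free of peaks in every library was not computed.

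The 8 genes carried 5hmC peaks mainly in the ESC libraries. In untransfected ESCs 20 peaks lay in the windows of 7 genes, and all but Neurog2 had at least 1; among all protein-coding genes 77.6% had an ESC peak in the same kind of window. shGFP had 30 peaks and shSuz12 23, in all 8 windows, where 75.8% and 76.2% of all genes had a peak. MEFs had 5 peaks in 4 windows (75.8% of all genes), brain 6 peaks in 3 windows (72.2%) and liver 1 peak in 1 window (68%). At a common score of at least 80, 20 peaks remained in ESCs, 21 in shGFP, 4 in shSuz12 and 1 in liver, and none in MEFs or brain.

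**Figure D1:**
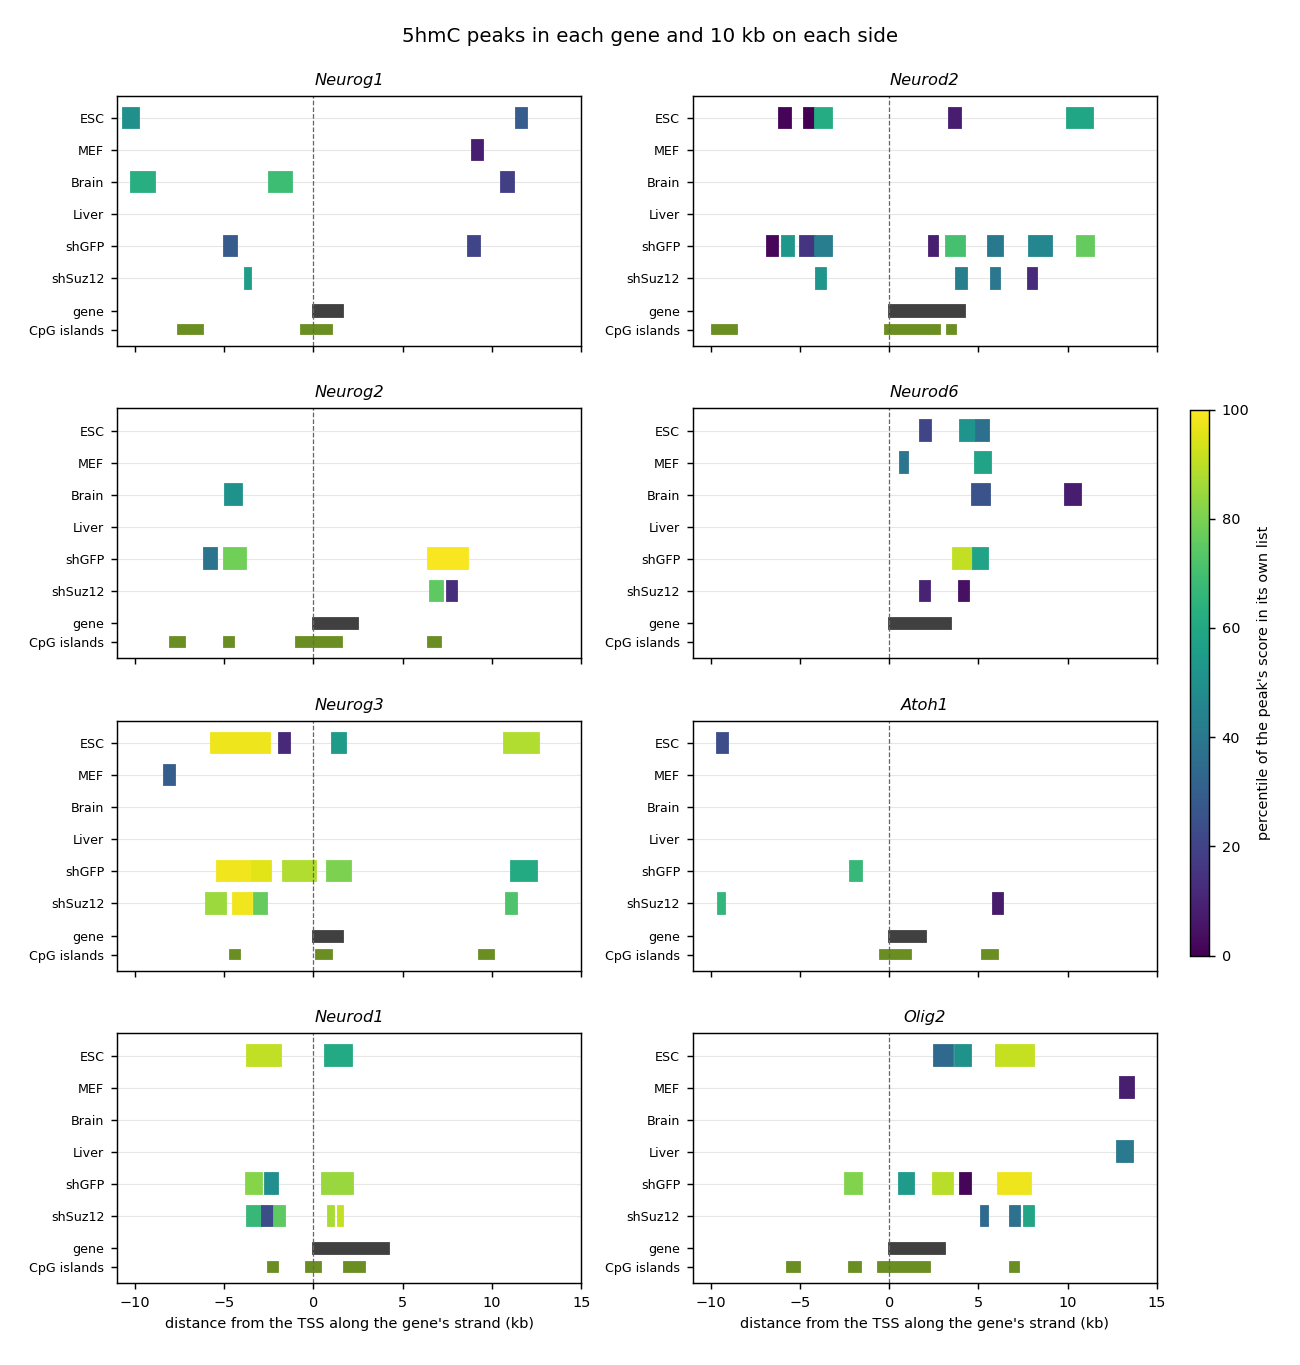
Every 5hmC peak in the 8 windows is drawn against its distance from the TSS in kb along the strand of the gene, with 1 row for each library and the colour giving the percentile of its score within its own list; the gene span and the CpG islands are drawn below. ESC, shGFP and shSuz12 rows hold 20, 30 and 23 peaks and the MEF, brain and liver rows 5, 6 and 1, and the TSS (dashed line) lies under a peak only for Neurog3 in shGFP.

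The share of the windows under peaks was 11.4% in ESCs, 17.3% in shGFP, 7.52% in shSuz12, 3.26% in brain, 1.57% in MEFs and 0.206% in liver. Because longer genes have longer windows, all genes were also compared over the 20 kb centred on the TSS. There the median of the 8 genes in ESCs was 12.7%, against 8.76% over all protein-coding genes. In shGFP it was 19.0% against 5.49%, and in shSuz12 6.78% against 3.70%. The mean gave another order in ESCs, with 11.3% for the 8 genes and 14.3% for all genes. In MEFs, brain and liver the median of the 8 genes was 0, against 5.65%, 5.67% and 6.46% over all genes. The median of the 8 genes thus lay above that of all genes in the 3 ESC libraries and below it in the 3 differentiated samples, but single genes did not all follow it. Neurog1 (1.14%), Neurog2 (0%) and Atoh1 (3.07%) lay below the ESC median of all genes, and Neurog1 in brain (11.8%), Neurod6 in brain (5.71%) and Neurod6 in MEFs (6.98%) lay above the medians there.

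**Figure D2:**
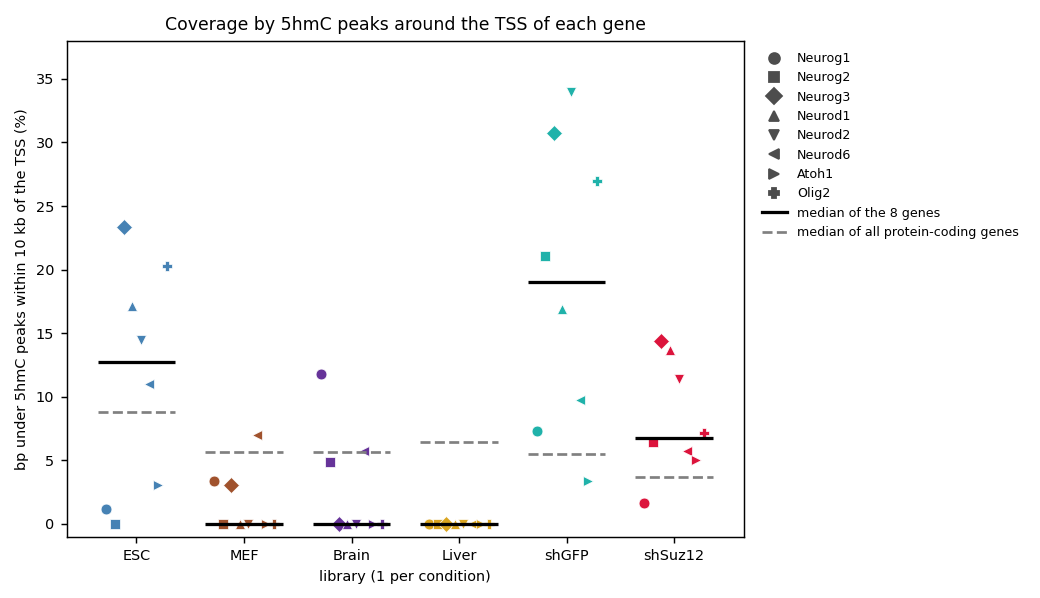
Each marker is 1 of the 8 genes, and the vertical axis gives the percentage of the 20 kb centred on its TSS that lay under 5hmC peaks in each of the 6 libraries. Black lines mark the median of the 8 genes (12.7% in ESCs, 19.0% in shGFP, 6.78% in shSuz12 and 0 elsewhere) and dashed lines the median of all protein-coding genes.

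Between untransfected ESCs and the differentiated samples, 6 of the 8 genes had more window bp under peaks in ESCs than in MEFs (54% of all genes), 6 had more than in brain (48.8%) and 7 had more than in liver (41.7%). Neurod1, Neurod2 and Atoh1 had no peak in the window in any of MEFs, brain and liver, as did 18.9% of all genes. In those 3 samples Neurod1 had its nearest peak 29096 bp from the TSS (MEFs), Neurod2 13141 bp (liver) and Atoh1 24128 bp (MEFs). In liver the nearest peak was 298407 bp from the TSS of Neurod6 and 312610 bp from that of Atoh1, distances exceeded by 11.8% and 11.4% of all genes. In these bulk samples, fewer cells with 5hmC and less 5hmC per cell cannot be told apart.

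Next to the TSS the libraries differed. Within 1 kb of the TSS, 1 of the 8 genes had an ESC peak (31.9% of all genes), 1 a MEF peak (30.1%), none a brain peak (20%), none a liver peak (29.4%), 3 a shGFP peak (27.1%) and 1 a shSuz12 peak (21.4%). Most of the 8 genes, 7, have a promoter of high or intermediate CpG content, and among all genes of those classes the shares were 33% in ESCs, 34.6% in MEFs, 21.5% in brain, 38% in liver, 28.6% in shGFP and 22.1% in shSuz12. In ESCs and shSuz12 the gene was Neurod1, in MEFs Neurod6, and in shGFP Neurog3, Neurod1 and Olig2. The base of the TSS lay under a peak only for Neurog3 in shGFP, where 11.2% of all genes had it so. In the other libraries 11.8% (ESCs), 6.87% (MEFs), 4.46% (brain), 5.38% (liver) and 5.83% (shSuz12) of all genes had a peak over the TSS. In the 1 kb before the TSS, peaks covered 0% of the bp of the 8 genes in ESCs and shSuz12, against 13.1% and 6.17% over all genes, but 12.5% in shGFP against 10.9%, all of it at Neurog3. In the 1 kb after the TSS the 8 genes had 4.16% in ESCs (12.9% over all genes), 2.59% in shSuz12 (5.73%) and 16.5% in shGFP (11.1%). The shGFP library was thus the one with more coverage next to the TSS at these genes than over all genes.

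Coverage by distance had its highest values away from the TSS. In ESCs the 8 genes were covered most from -4 to -3 kb, at 31.7% of the bp against 12.1% over all genes, and next from 1 to 2 kb, at 25.8% against 16.5%. In shGFP the highest bin was from -5 to -4 kb, at 46.0% against 8.34%, and in shSuz12 from -4 to -3 kb, at 30.3% against 5.32%. These upstream bins rest on 3, 4 and 4 genes. The 3 ESC libraries thus had their maximum in neighbouring bins 3 to 5 kb upstream. From -5 to -3 kb MEFs and liver had no bp under peaks, while brain had 951 bp from -5 to -4 kb (11.9% against 7.92% over all genes) and 22 bp from -4 to -3 kb, all from 1 peak at Neurog2.

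**Figure D3:**
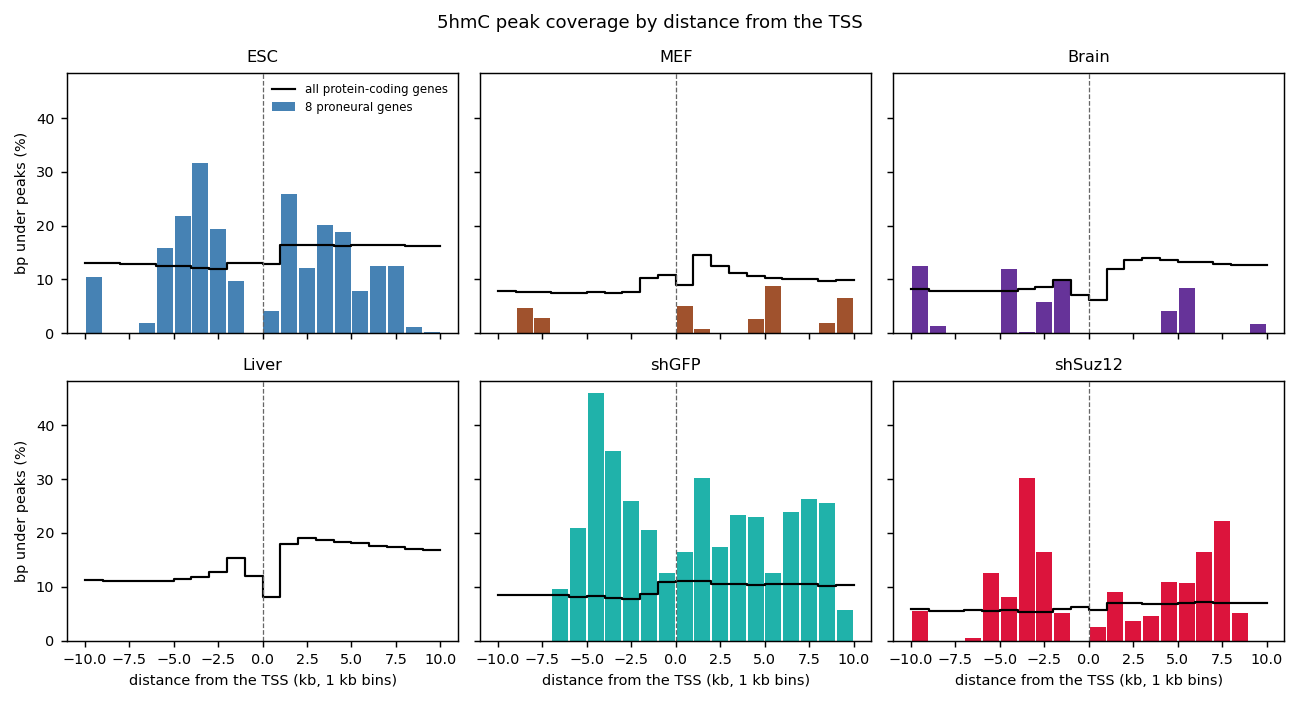
Coloured bars give the percentage of bp under 5hmC peaks in 1 kb bins from -10 to 10 kb around the TSS, pooled over the 8 genes, in each library, and the black line gives the same over all protein-coding genes. The 8 genes reach 31.7% in ESCs, 46.0% in shGFP and 30.3% in shSuz12 between 3 and 5 kb upstream, have 0% in the 1 kb before the TSS in ESCs and shSuz12, and have no bar in liver.

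The genes differed widely among themselves, and are described by family. The neurogenins act early, in dividing progenitors. Neurog3, which specifies the endocrine cells of the pancreas and acts in parts of the nervous system, lies at chr10:61595838-61597511 on the plus strand, within the antisense gene 2010107G23Rik, so these peaks cannot be assigned to 1 of the genes. It had the strongest ESC peak of the 8 windows, from -5756 to -2449, with a score of 1186.44, at the 97.5 percentile of its list. Over the same stretch shGFP had peaks of 396.65 and 312.13 (97.7 and 95.6 percentiles) and shSuz12 peaks of 84.18, 145.54 and 72.27 (85.1, 97.8 and 76.4 percentiles). All 3 ESC libraries thus marked this upstream region strongly within their own lists. Another shGFP peak ran from -1691 to 118 with a score of 201.69, over the TSS and 119 bp of the 5′ end of the gene, where ESCs had a shorter peak of 93.65 from -1922 to -1340 and shSuz12 none. Over the 3′ end of the gene ESCs had a peak of 196.84 (1042 to 1824) and shGFP one of 157.35 (759 to 2097), again with none in shSuz12. A downstream region from 10671 to 12632 was marked in ESCs (530.14), shGFP (103.48) and shSuz12 (66.71). Outside ESCs there was 1 peak, in MEFs, from -8378 to -7771 with a score of 42.46. Its window bp under peaks were 5677 in ESCs, 6753 in shGFP, 3535 in shSuz12, 608 in MEFs, 0 in brain and 0 in liver.

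Neurog2, which drives the formation of excitatory neurons in the dorsal telencephalon, lies at chr3:127336054-127338549 on the plus strand. It had no ESC, MEF or liver peak in its window. shGFP had 3 peaks, and the one from 6403 to 8669 scored 551.24, the highest shGFP score in the 8 windows and at the 99.2 percentile of the list. shSuz12 had 2 peaks inside that stretch, from 6522 to 7265 with 70.38 and from 7494 to 8031 with 37.91, at the 75.02 and 12.8 percentiles. The other shGFP peaks lay from -6118 to -5399 (74.08) and from -4996 to -3766 (148.64). The latter met the only brain peak, from -4951 to -3979 with a score of 50.11. Window bp were 0 in ESCs, 4218 in shGFP, 1282 in shSuz12, 973 in brain and 0 in MEFs and liver. Both transfected libraries and the brain were thus marked here while untransfected ESCs were not. Of these peaks, only the shGFP ones of 551.24 and 148.64 passed 80, the lowest score in the ESC list.

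Neurog1, which acts in sensory neuron precursors, lies at chr13:56351866-56353524 on the minus strand. Its peaks were scattered over 7 separate regions, none of them shared by 2 ESC libraries, and none passed the 68.7 percentile of its list. In ESCs peaks of 176.80 and 123.09 (49.6 and 29.3 percentiles) lay at the window edges (-10688 to -9773 and 11349 to 11978). shGFP had peaks of 66.03 (-5005 to -4269) and 61.06 (8632 to 9354), and shSuz12 one of 55.12 (-3834 to -3508). It was the gene with the most brain bp, 3099, from peaks of 59.34 (-10200 to -8896), 65.32 (-2464 to -1214) and 35.64 (10478 to 11220). The first of these stood at the 62.8 percentile of the brain list and the next at 68.7. The MEF peak, from 8853 to 9521, scored 32.77, and the downstream peaks overlap the noncoding gene 4930550C17Rik.

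The Neurod genes act later, in differentiating neurons. Neurod1, which also acts in pancreatic beta cells, lies at chr2:79292678-79296908 on the minus strand and overlaps the genes Cerkl and Gm17325. Its peaks fell into 2 regions, each marked in all 3 ESC libraries and in no other. The upstream region had an ESC peak of 605.74 (-3748 to -1813), shGFP peaks of 164.30 and 86.63, and shSuz12 peaks of 64.25, 42.35 and 70.59. The region in the gene had an ESC peak of 221.68 (667 to 2161), a shGFP peak of 179.16 (474 to 2242), and shSuz12 peaks of 87.37 (793 to 1168) and 98.91 (1374 to 1666), both in the intron. Those intronic shSuz12 peaks are 2 of the only 4 shSuz12 peaks in the 8 windows with a score of at least 80, the others being at Neurog3. Relative to its size, coverage differed least among the ESC libraries at Neurod1, with 3431 bp in ESCs, 3378 in shGFP and 2737 in shSuz12.

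Neurod2, a factor of maturing excitatory neurons, lies at chr11:98186729-98190962 on the minus strand and had the most shGFP peaks, 9. Its shGFP scores ran from 50.96 to 141.80, with the highest between 10499 and 11486. The 5 ESC peaks scored from 80.04, just above the lowest score of that list, to 227.71 (-4159 to -3210). The 4 shSuz12 peaks scored from 37.62 to 54.46. Within their lists the highest ESC peak stood at the 61.6 percentile, the highest shGFP peak at 76.5 and the highest shSuz12 peak at 52.1. The regions from -4978 to -3177 and from 3181 to 4374, the latter over the last exon's 3′ UTR, were marked in all 3 ESC libraries, while those from 5555 to 6385 and from 7753 to 9098 were marked in shGFP and shSuz12 only. Window bp were 4308 in ESCs, 7777 in shGFP, 2282 in shSuz12 and 0 in MEFs, brain and liver.

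Neurod6, a marker of postmitotic cortical excitatory neurons, lies at chr6:55627812-55631257 on the minus strand, and is the 1 gene of the 8 with a low-CpG promoter and no CpG island in the window. The merged stretch from 3582 to 5705, just past its 3′ end, held peaks of 5 of the 6 libraries, more than any other region. Scores were 184.20 and 139.09 in ESCs, 230.49 and 98.99 in shGFP, 35.33 in shSuz12, 67.67 in MEFs and 38.07 in brain. Liver alone had no peak there. The shSuz12 peak (3904 to 4497) met neither the MEF peak (4781 to 5705) nor the brain peak (4662 to 5666), so the 5 libraries did not share 1 site. The coding sequence was marked in ESCs (1716 to 2326, score 107.11) and in shSuz12 (1736 to 2293, 36.95), the intron in MEFs (590 to 1061, 48.46), and a further brain peak of 32.07 lay from 9864 to 10758. It was the gene with the most MEF bp, 1397.

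Atoh1, the factor of cerebellar granule cells and of hair cells of the inner ear, lies at chr6:64679140-64681227 on the plus strand and had the fewest peaks among the genes marked in ESCs. Its single ESC peak, from -9661 to -9047, scored 111.24 and met a shSuz12 peak of 63.15 (-9604 to -9170). The single shGFP peak scored 115.33 and lay elsewhere, from -2187 to -1513, and a second shSuz12 peak scored 36.17 (5815 to 6389). Window bp were 615 in ESCs, 675 in shGFP and 1010 in shSuz12.

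Olig2, the factor of motor neuron and oligodendrocyte progenitors, lies at chr16:91225795-91228922 on the plus strand. A region downstream of the gene, from 5975 to 8093, had an ESC peak of 629.75 (91.1 percentile), a shGFP peak of 383.46 (97.4 percentile) and shSuz12 peaks of 45.81 and 56.52 (37.6 and 58.6 percentiles). The 3′ end was marked in ESCs (132.31, 2519 to 3591) and shGFP (214.25, 2464 to 3595). Just past it ESCs had a peak of 178.32 (3700 to 4568) and shGFP one of 50.63 (3963 to 4593). A shSuz12 peak of 45.31, from 5158 to 5513, met no peak of another library. Peaks from -2447 to -1543 (160.62) and from 564 to 1418 (93.59), the second over the intron and the coding sequence, were in shGFP only. This gene had the only liver peak, from 12752 to 13667 with a score of 139.57, which extends beyond the window and met a MEF peak of 32.82. Window bp were 4061 in ESCs, 5389 in shGFP, 1432 in shSuz12, 376 in liver, 198 in MEFs and 0 in brain.

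Merged where they overlapped, the peaks of all libraries formed 39 regions. Of these, 29 were marked only in ESC libraries, 6 only in MEFs, brain or liver, and 4 in both kinds. By number of libraries, 16 were marked in 1 library, 8 in all 3 ESC libraries and none in all 6. Peaks were merged in these windows only, so the region counts have no share over all genes beside them. Of the 20 ESC peaks, 80% met a shGFP peak and 50% a shSuz12 peak, where 56.4% and 47.1% of all ESC peaks did. In turn, 60% of the shGFP peaks and 69.6% of the shSuz12 peaks in the windows met an ESC peak, where 76.3% and 67.3% of all peaks of those lists did. For the 20 ESC peaks against MEFs, brain and liver the shares were 15%, 15% and 0%, where 48.0%, 44.4% and 38.4% of all ESC peaks met one. The share met by shSuz12 was thus near that of all ESC peaks, the share met by shGFP was higher, and the shares met by the differentiated samples were lower.

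Knockdown of Suz12 addresses whether 5hmC at these genes depends on PRC2. In shSuz12, 7 of the 8 genes had fewer window bp under peaks than in shGFP, as did 61.2% of all genes. Atoh1 had more, as did 19% of all genes. The 61.2% includes genes with no shGFP peak in the window, which cannot have fewer bp, whereas all 8 genes had one. Of the 16964 genes with a shGFP peak in the window, 13698 had fewer bp in shSuz12. Summed over the windows, peaks took up 31599 bp in shGFP but 13757 bp in shSuz12, a ratio of 0.435. The same ratio was 0.689 over the genome and 0.651 over the 20 kb around the TSS of all protein-coding genes, so the shSuz12 list covers less throughout. Per gene the ratio was lowest at Neurog1 (0.224), Olig2 (0.266), Neurod2 (0.293) and Neurog2 (0.304), followed by Neurog3 (0.523), Neurod6 (0.591) and Neurod1 (0.810), and was 1.5 at Atoh1. The median was 0.414 for the 8 genes and 0.668 for all genes with a shGFP peak in the window. Of the peaks in the windows, 70% in shGFP and 17.4% in shSuz12 scored at least 80, against 56.0% and 17.0% in the whole lists. At that common score the ratio of covered bp was 0.113 over the windows and 0.242 over the genome.

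**Figure D4:**
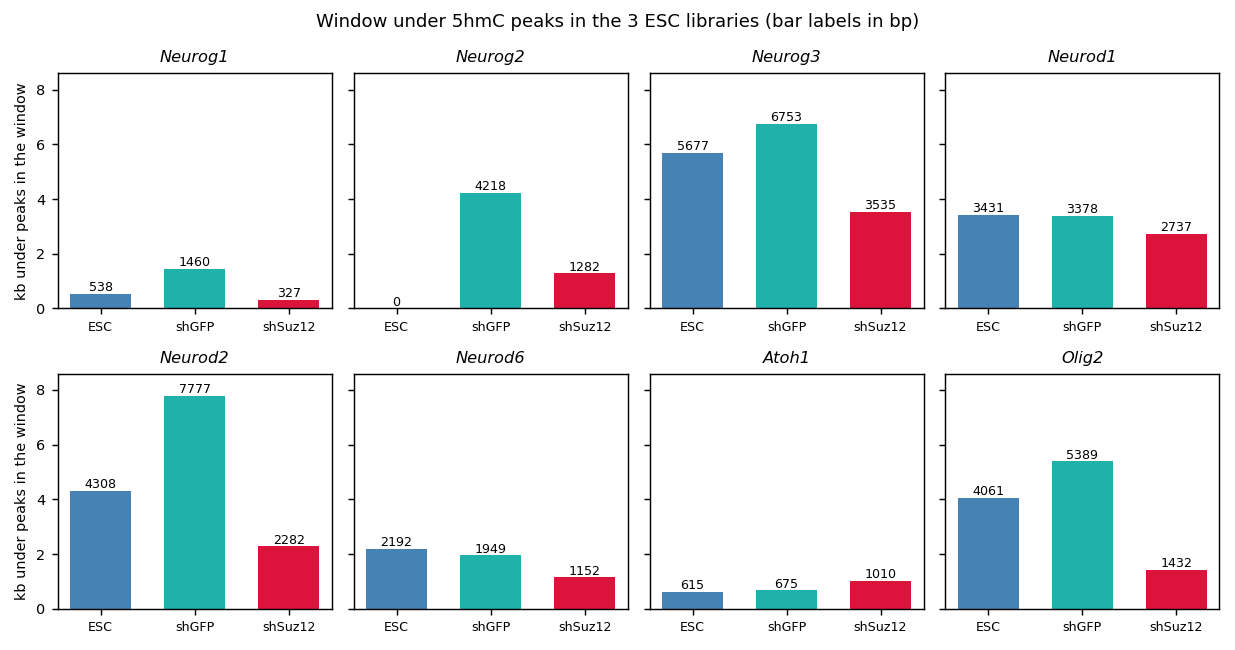
Bars give the kb of each window (gene and 10 kb on each side) under 5hmC peaks in untransfected ESCs, shGFP and shSuz12, 1 library each, with the bp printed above. shSuz12 is lower than shGFP at 7 genes and higher at Atoh1 (1010 against 675 bp), and shGFP is above untransfected ESCs at 6 genes. The ESC list holds no score under 80, the shGFP list none under 50.02 and the shSuz12 list none under 30.34.

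Untransfected ESCs show how far ESC libraries without the knockdown lay apart. shGFP had more window bp than ESCs at 6 of the 8 genes, which held for 12.8% of all genes, and fewer at Neurod1 and Neurod6. The ratio of shGFP to ESCs was 1.52 over the windows and 0.676 over the genome. The ratio of shSuz12 to ESCs was 0.661 over the windows and 0.466 over the genome, and shSuz12 had fewer bp than ESCs at 6 genes (72.7% of all genes) and more at Neurog2 and Atoh1 (8.14%). These comparisons share the shGFP, ESC or shSuz12 library with each other. Summed over the windows, shGFP thus lay above both shSuz12 and untransfected ESCs, though not at every gene. The ESC list holds no score under 80, whereas the shGFP list goes down to 50.02. At a score of at least 80 the share of the windows under peaks was 13.7% in shGFP and 11.4% in ESCs. At that score Neurog1, 1 of the 6 genes, kept 2 ESC peaks and no shGFP peak. With 1 library each, an effect of the hairpin or of transfection and a difference between libraries cannot be told apart.

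Of the 30 shGFP peaks, 13 met a shSuz12 peak (43.3%, against 50.5% of all shGFP peaks) and 17 did not; 6 of the 13 met 2 or more. From the other side, 78.3% of the 23 shSuz12 peaks met a shGFP peak, against 53.6% of all shSuz12 peaks. Most shSuz12 peaks at these genes thus met shGFP peaks. The median width of the peaks in the windows was 558 bp in shSuz12 and 927 bp in shGFP. Regions marked in shSuz12 but not in shGFP numbered 5, at Neurog1, Neurod6 and Olig2 and, for the remaining ones, at Atoh1.

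CpG islands, stretches rich in CpG that often surround the TSS and are mostly free of methylation there, took up 13.7% of the windows, in 22 islands. Peaks touched 11 of them in shGFP, 6 in ESCs, 6 in shSuz12, 1 in brain and none in MEFs or liver. Among all islands near a TSS, 27.0% were touched in shGFP, 26.2% in ESCs, 17.4% in shSuz12, 13.3% in brain, 21.7% in MEFs and 25.9% in liver. The islands over the TSS of Neurog1 (-706 to 1023), Neurog2 (-983 to 1596), Neurod1 (-432 to 397), Neurod2 (-218 to 281) and Atoh1 (-499 to 1200) had no bp under peaks in any of the 6 libraries. The island over the TSS of Olig2 (-634 to 2275) had 855 of 2910 bp under peaks in shGFP and 0 elsewhere. Of the 16 islands that did not hold the TSS, 5 had no bp under peaks in any library, 1 each at Neurog1, Neurog2, Neurog3, Neurod2 and Olig2. The share of all islands with no bp under peaks in all 6 libraries was not computed, so these counts have none beside them. In each library most of the islands near a TSS were untouched. Other islands of the 8 genes were covered over much of their length. The island upstream of Neurog3 (-4647 to -4118) lay wholly under peaks in ESCs and shGFP, 530 bp, and for 367 bp in shSuz12, and the island downstream of Olig2 (6776 to 7285) lay wholly under peaks in all 3 ESC libraries. At Neurod1 the island from -2572 to -2013 was covered for 560, 560 and 518 bp in ESCs, shGFP and shSuz12. Of all peak bp in the windows, 19.3% were in islands in shGFP, 17.0% in shSuz12, 10.8% in ESCs and 8.39% in brain.

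Other genes of the pathway were taken from lists by function. Of 10 other neural bHLH factors, 6 had an ESC peak within 1 kb of the TSS, 6 a shGFP peak and 7 a shSuz12 peak, against 1, 3 and 1 of the 8 genes above. Atoh7, which specifies retinal ganglion cells, had 1372 bp of these 2000 bp under peaks in ESCs, 649 in shGFP and 574 in shSuz12, and Nhlh2, a factor of neuroendocrine neurons, had 1041, 841 and 610. Bhlhe23 had 192 bp in ESCs, 1794 in shGFP and 192 in shSuz12, while Neurod4 had 0, 0 and 577. Over these 10 genes ESCs had a median of 12.6% of the 20 kb around the TSS under peaks, shGFP 12.2%, shSuz12 8.02%, brain 2.92%, and MEFs and liver 0. The ESC median was thus close to that of the 8 genes (12.7%), while the shGFP median was lower (19.0% for the 8 genes) and the brain median higher (0).

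The partners and inhibitors, which unlike the proneural genes act in many tissues, carried 5hmC peaks in the differentiated samples too. Within 10 kb of the TSS, 7 of the 8 proneural genes had an ESC peak (70.1% of all genes), 3 a MEF peak (67.1%), 3 a brain peak (62.7%), none a liver peak (59.9%), 8 a shGFP peak (66%) and 8 a shSuz12 peak (66.3%). All 3 E protein genes had a peak within 10 kb of the TSS in MEFs, brain and liver, and none of the 3, Tcf12 and Tcf3 among them, had one within 1 kb in the ESC libraries. The 8 inhibitor genes all had one within 10 kb in ESCs, MEFs, brain and shGFP, and 7 in liver and shSuz12. Their median share of the 20 kb was 18.3% in ESCs, 21.1% in MEFs, 8.05% in brain, 25.0% in liver, 16.4% in shGFP and 8.21% in shSuz12. Next to the TSS, the Id3 gene had 890 bp in ESCs, 922 in shGFP and 262 in shSuz12, and Hes5 had 786, 693 and 276. Hes6, placed in this list by its family, had 60, 0 and 533. Within 10 kb of the TSS, fewer bp lay under peaks in shSuz12 than in shGFP at 8 of 10 other neural factors, 2 of 3 E proteins and 7 of 8 inhibitors. The same held for 7 of the 8 proneural genes and 53.1% of all genes. A gene with no shGFP peak there cannot have fewer bp. Of the 14767 genes with one, 11884 had fewer bp in shSuz12.

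**Figure D5:**
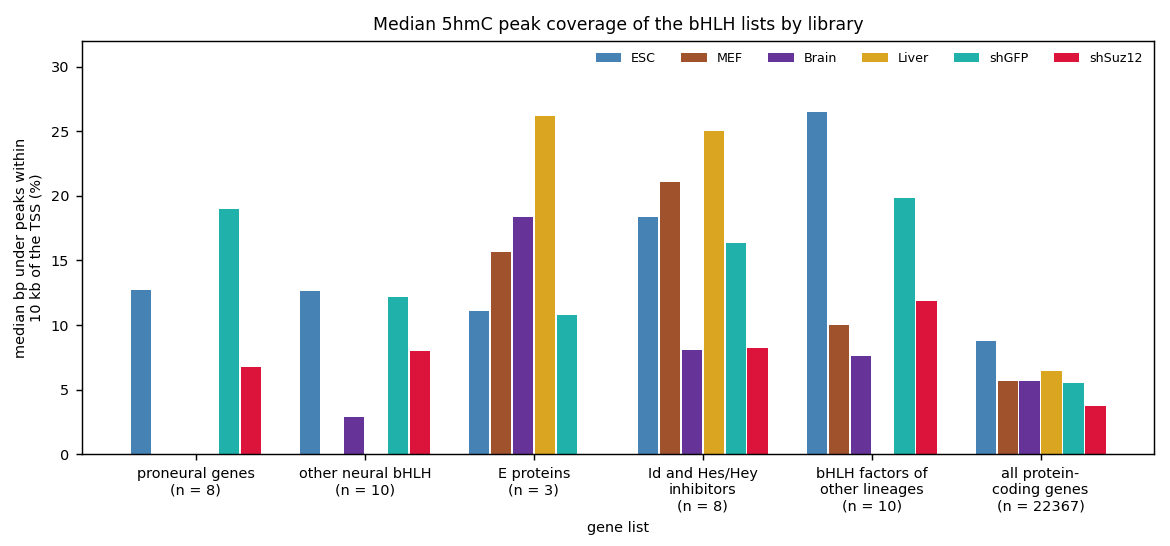
Bars give the median percentage of the 20 kb centred on the TSS that lay under 5hmC peaks, for each gene list and library, with no error bars since each condition has 1 library. The proneural genes have bars only in ESCs, shGFP and shSuz12 (12.7%, 19.0% and 6.78%), whereas the inhibitors have bars in all 6 libraries, between 8.05% in brain and 25.0% in liver.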

How the data were processed

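Genomic 5hmC was enriched by GLIB and sequenced in 6 libraries, 1 per condition. Per the study's methods and processing notes, the authors mapped reads to mm9 with Bowtie 0.12.7, removed duplicate reads and ran MACS 1.4.1 on each library. The deposited score is the authors' MACS value, the negative log10 of the p-value multiplied by 10. Which threshold and control MACS used is not given in the sources used here. Coordinates were converted to 1-based positions and compared with the GENCODE M1 annotation of NCBIM37 (mm9). No peak passed a chromosome end, and mitochondrial peaks were left out. Peaks were intersected with windows by at least 1 bp (Python 3.11.15, pandas 2.3.3, pysam 0.24.0). CpG islands had at least 55% G+C and an observed to expected CpG ratio of 0.65 in 500 bp windows. Promoter classes were read from -700 to 200 bp around the TSS, and a promoter was low-CpG with no window ratio above 0.48. Coverage and island steps were tested on simulated data. Named genes were the 8 genes and, per list, the 2 with most ESC bp within 1 kb of the TSS and the 2 with the largest difference between shSuz12 and shGFP, plus the 3 genes nearest to the median profile. Genes, lists and rules were chosen with earlier results of these data known. The 2 RNA-Seq libraries were not analysed here.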

Additional observations from a re-analysis of the deposited data

How the results depend on the processing

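No paired analysis was possible because no condition has more than 1 library. Of 108 alternative values computed for the 8 genes, 78 stayed within 1.5 times the reported value, 30 moved further, and no ratio or majority passed to the other side. Genes with a peak within 1 kb of the TSS became 0 in ESCs, MEFs and shSuz12 within 500 bp, and 3 in ESCs, 1 in brain and 2 in shSuz12 within 2 kb. Counted by peak midpoint, ESCs had 0, and MEFs had 0 with scores of at least 80, with peaks above the median score of their list and with equal numbers of peaks. The share of the windows under peaks at a score of at least 80 was 0% in MEFs and brain and 1.55% in shSuz12, which lowered the shSuz12 to shGFP ratio to 0.113; the cause was not tested. With peaks above the median score MEFs had 0.506% (also with equal numbers of peaks), brain 1.82%, liver 0% and shSuz12 4.50%. With a flank of 20 kb MEFs had 3.09%, brain 5.35% and liver 0.997%, and with 5 kb liver had 0%. The share of peak bp in islands was 0.939% in ESCs, 0% in brain, 7.20% in shGFP and 3.16% in shSuz12 for islands with an observed to expected ratio above 0.75, and in brain 14.7% with peaks above the median score, 16.0% with a flank of 5 kb and 2.72% with 20 kb. The low counts in MEFs, brain and liver thus rest on few peaks, and the depth of the libraries is unknown.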

Other observations

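bHLH factors that govern other lineages differed from the proneural genes next to the TSS. Of 10 such genes, 7 had an ESC peak within 1 kb of the TSS and the TSS itself lay under it in all 7, against 1 and 0 of the 8 proneural genes and 31.9% and 11.8% of all genes. Of these 7 genes, 6 have a low-CpG promoter, whereas 7 of the 8 proneural genes have one of high or intermediate CpG content; the part of promoter class in the difference was not tested. Msgn1, a factor of the presomitic mesoderm, had 2001 bp of the 2 kb around the TSS under peaks in ESCs, 1225 in shGFP and 0 in shSuz12. Hand1, which acts in heart and trophoblast, had 1998, 1863 and 1285 bp, and Myf5, a myogenic factor, 1750, 1644 and 0 bp. All 10 had fewer bp under peaks in shSuz12 than in shGFP within 10 kb of the TSS, where 53.1% of all genes did. Each of the 10 had a shGFP peak there, as did 14767 of all genes, of which 11884 had fewer bp in shSuz12. Myf5 and Myf6, both on chromosome 10, each had 2380 bp there in shSuz12, so the 10 genes may not be 10 separate regions. Over the 10 genes the median share of those 20 kb was 26.5% in ESCs, 19.9% in shGFP, 11.9% in shSuz12, 9.99% in MEFs, 7.61% in brain and 0 in liver. These lists were compared with no test.

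The protein-coding genes whose coverage of the 20 kb around the TSS over the 6 libraries lay closest to the median profile of the proneural genes were Gm17649 (Euclidean distance 1.5 percentage points), Hoxc13 (1.62) and Gm53 (1.97). Hoxc13, a homeobox gene, had 12.6% in ESCs, 17.5% in shGFP, 6.18% in shSuz12 and 0 in MEFs, brain and liver.

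The shGFP peak downstream of Neurog2, with a score of 551.24, was looked at again after its value was seen, since untransfected ESCs had no peak there. Of 1091 shGFP peaks with at least this score, 2 (0.183%) had no ESC peak over them. In the ESC list the neighbouring peaks, 27466 bp before and 37596 bp after it, carry the consecutive numbers 102323 and 102324 of the authors' list, and score 153.84 and 237.83. The list thus shows no gap in its numbering at this place. Numbers given after a score cut would run on in any case, so the numbering cannot show whether a weaker ESC peak was left out.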
